A study of Mus musculus with 12 samples.

Results

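The MHC class II presentation genes were chosen by name as the entries H2.Aa, H2.Ab1, H2.Eb1, Cd74, H2.DMa, H2.DMb2, H2.Oa, H2.Ob and Ciita of the count table, which writes the hyphens of gene symbols as dots. These 9 of 56941 entries all passed the filter on low counts. They were followed in 12 RNAseq libraries of B cells sorted from the mouse peritoneal cavity (PerC), with 3 libraries for each pairing of genotype (control or KI) and cell type (B2 or MemB). B2, the naive-type B cells, were gated as positive for IgD and IgM, and memory B cells (MemB) as negative for both. In KI mice, Cd21-Cre removes a stop cassette from a Rosa26 allele, so that mature B cells make GFP and a C-terminally truncated GPR34 with a gain of function. Controls were littermates of the KI mice, and their own alleles are not given in the sources used here. The mice of the study were adults of both sexes on a C57BL/6 background, libraries are labelled as biological replicates, and whether B2 and MemB libraries with the same number came from the same mouse is not stated.

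MHC class II molecules are heterodimers that carry peptides from endocytosed antigen to the cell surface, where CD4 T cells read them. In B cells, antigen taken up through the B cell receptor is presented in this way to helper T cells. New alpha and beta chains assemble on the invariant chain, Cd74, which fills the groove and directs the complex to endosomes. There, H2-DM removes the remnant of the invariant chain and edits the peptides, and H2-O, expressed mainly in B cells, binds H2-DM and restrains it. Ciita is the coactivator on which transcription of these genes depends, and it is silenced when B cells become plasma cells (PC).

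In the GRCm39 assembly, the 7 chain genes lie on chromosome 17 within the MHC. H2-Oa spans 34311314 to 34314328, H2-DMa 34338515 to 34358958, H2-DMb2 34362197 to 34370529, H2-Ob 34457836 to 34473388, H2-Ab1 34476663 to 34488393 and H2-Eb1 34504236 to 34535648, all on the plus strand, and H2-Aa spans 34493404 to 34506798 on the minus strand. All 7 are annotated as protein coding.

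Ciita does not bind DNA itself but joins a complex on the X box, which holds an AAC and is bound by RFX factors, and the Y box, whose core GATTGG is bound by NF-Y. RefSeq promoter windows (250 bases before to 50 after the start, from a table on GRCm38.p6) were found for 6 of the 9 genes by symbol. In 5 of these 6, AAC was followed after 20 to 30 bases by GATTGG, an arrangement that 2.15% of 32851 promoter windows of the same length hold on either strand, while 16.1% hold GATTGG alone on either strand. The spacing was set after these sequences had been seen, the motifs do not overlap, and a match describes letters and not a bound site. The stretches below show this shared arrangement, with AAC and GATTGG in capitals, each read on the gene's strand and each placed by its only match in the assembly GRCm39.
H2-Aa, chr17:34506835-34506888, minus strand: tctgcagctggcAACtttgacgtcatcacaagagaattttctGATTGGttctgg
H2-Eb1, chr17:34524740-34524792, plus strand: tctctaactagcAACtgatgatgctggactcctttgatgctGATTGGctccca
H2-DMb2, chr17:34364090-34364143, plus strand: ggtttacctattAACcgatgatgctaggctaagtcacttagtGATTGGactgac
H2-Oa, chr17:34311267-34311320, plus strand: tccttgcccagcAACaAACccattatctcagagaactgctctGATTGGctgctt
H2-Ob, chr17:34457782-34457832, plus strand: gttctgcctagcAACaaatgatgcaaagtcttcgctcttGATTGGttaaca

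The distance from AAC to GATTGG was 27 bases in H2-Aa and H2-DMb2, 26 in H2-Eb1 and 24 in H2-Ob, and H2-Oa held AAC at distances of both 27 and 23. GATTGG lay 44 to 91 bases before the RefSeq start in these 5 genes, and the H2-DMa windows held no such pair. The remaining genes lie outside the MHC, Cd74 on chromosome 18 at 60936899 to 60945731 and Ciita on chromosome 16 at 10297923 to 10347694 of GRCm39, both on the plus strand and protein coding.

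The libraries held between 29895031 and 39732039 counts, of which ribosomal RNA genes took 29.3% to 38.3%, and between 17105 and 18421 named genes had a count. Values below are TMM-normalized CPM, that is, counts scaled to the effective size of each library. Gpr34, the gene carried by the allele, stood at 3.44 to 6.90 CPM in control B2 and 101 to 113 in KI B2, and at 18.9 to 31.0 in control MemB and 133 to 170 in KI MemB, so that no library stood against its genotype label. Ighd, the IgD heavy chain, was at 1306 to 1704 CPM in B2 and 66.8 to 253 in MemB. Ighm, the IgM heavy chain, stood at 4100 to 4366 CPM in control B2 and 2925 to 3621 in KI B2, and at 2027 to 2706 in control MemB and 299 to 570 in KI MemB, so that control MemB, gated as negative for IgM, held its transcript at a level closer to B2 than to KI MemB. The B cell markers Ms4a1 and Cd79a, the second a chain of the B cell receptor, were at 626 to 937 CPM and 406 to 662 CPM over the 12 libraries.

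The 9 genes together took 0.620% to 0.812% of the reads of a library, or 0.922% to 1.16% once ribosomal RNA was set aside. In B2 their summed level was 7293 ± 396 CPM in control and 6512 ± 474 in KI, and in MemB it was 6675 ± 339 in control and 7421 ± 429 in KI (SD, n = 3 each). The highest control MemB sum, 6952, lay just above the lowest KI MemB sum, 6945, and the sums of control B2 lay above all of KI B2 (lowest 6961 against highest 6806). Control MemB sums also lay below all control B2 sums, by a narrow gap (6952 against 6961), and KI MemB sums above all KI B2 sums (6945 against 6806). As a share of reads without ribosomal RNA, MemB and B2 overlapped in KI and did not in control, and no test was made on these sums. Cd74 ranked 20th and H2-Aa 24th by mean CPM, with no account of gene length, among the 14933 genes tested. On the same measure H2-Ab1 ranked 45th, H2-Eb1 82nd and H2-Ob 108th. Ciita, at rank 1013, and H2-Oa, at rank 3776, were the lowest of the 9 by CPM.

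**Figure D1:**
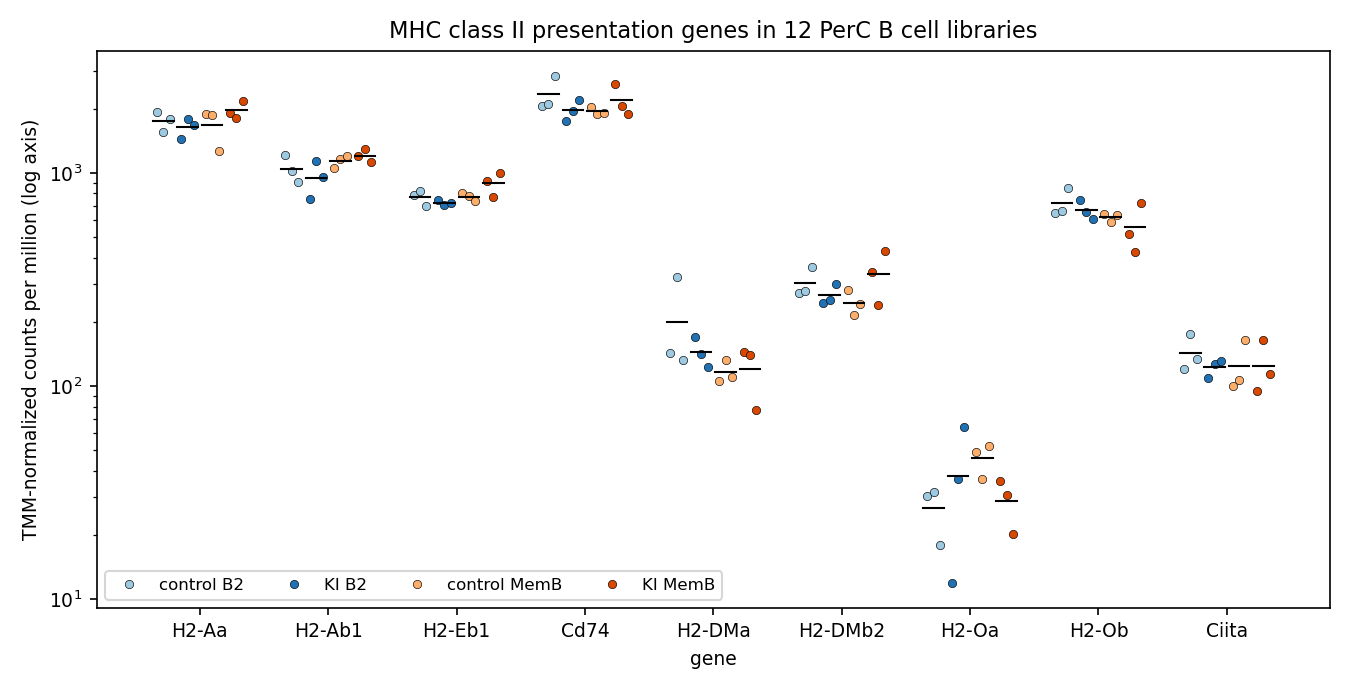
CPM (log axis) of the 9 genes, with 1 point per library, colours for the 4 groups of 3 libraries and a bar at each group mean. Cd74 and the classical chains lie at the top with H2-Ob, and H2-Oa scatters between 11.97 and 64.2. The highest group mean of a gene is 1.17 to 1.72 times its lowest.

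Levels can be set between genes only per length, so CPM were divided by the length of the canonical transcript in kb. On this scale the order over 12 libraries was H2-Aa (1557 ± 216 CPM per kb, SD), Cd74 (1473 ± 221), H2-Ab1 (894 ± 126), H2-Eb1 (465 ± 51.9), H2-Ob (236 ± 39.5), H2-DMb2 (197 ± 42.1), H2-DMa (126 ± 53.2), H2-Oa (28.8 ± 12.3) and Ciita (17.2 ± 3.58). H2-Aa and Cd74 lay within 1 SD of each other, as did H2-Ob and H2-DMb2. The most plentiful transcripts were therefore those of the peptide-binding A dimer and its chaperone, with the editor H2-DM and its inhibitor chain H2-Ob in the middle and the coactivator at the bottom. The chains of H2-O were unequal, since H2-Oa was below H2-Ob in each of the 12 libraries, with 53.2 CPM per kb as the highest H2-Oa value and 158 as the lowest H2-Ob value.

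**Figure D2:**
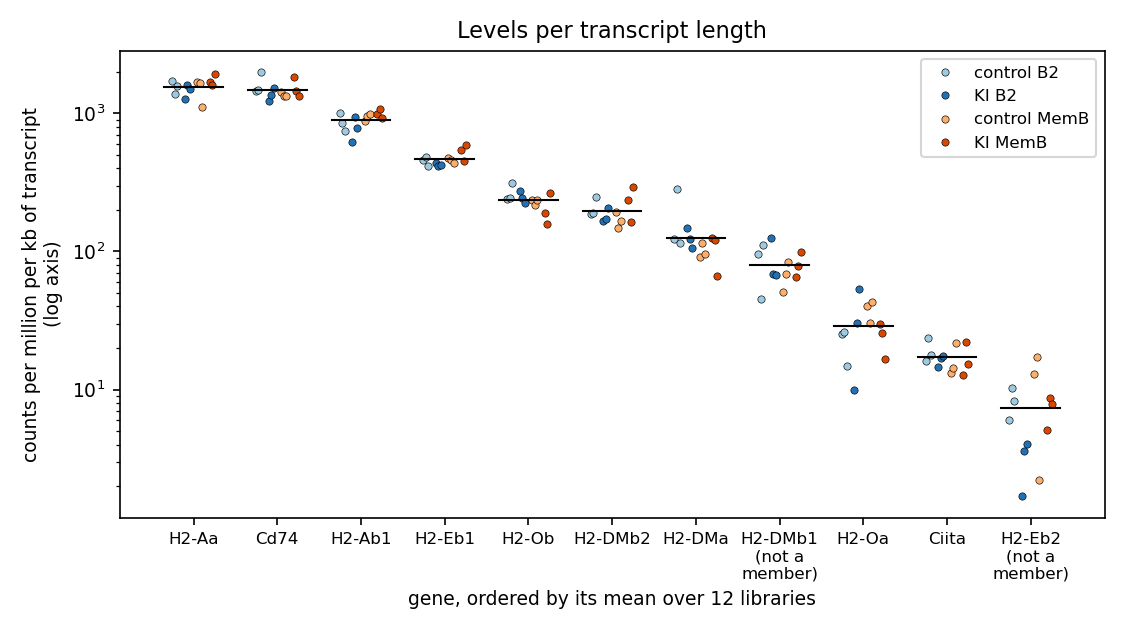
CPM per kb of transcript (log axis) for the 9 genes and 2 relatives outside the list, H2-DMb1 and H2-Eb2, ordered by the mean over 12 libraries (bar), with 1 point per library. The order runs from H2-Aa at 1557 to Ciita at 17.2 among the 9, and libraries of the 4 groups mix at each gene.

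The spread between libraries differed among the 9 genes. The coefficient of variation of CPM over the 12 libraries was 11.2% for H2-Eb1, 13.9% for H2-Aa, 14.1% for H2-Ab1, 14.99% for Cd74 and 16.7% for H2-Ob, and 42.1% for H2-DMa and 42.7% for H2-Oa. edgeR's estimate of biological variation between replicates was 24.5% to 25.8% for the 5 steady genes, against a median of 78.8% over all genes tested. At the level of these genes, edgeR's trend over all genes was 27.1% to 28.3%. Annotation bears on some of these values. In H2-Oa, 32.8% of exonic bases also lie in exons of the antisense gene BC051537, and in H2-DMb2, 31.9% of 50-base windows also occur in transcripts of other genes, H2-DMb1 leading, so the values of both genes may hold reads of those neighbours or lose reads to them.

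The libraries' ups and downs were not shared across the family. Of 36 pairs of the 9 genes, 16 had a positive correlation of log2 CPM over the 12 libraries (median r = -0.04), from -0.67 for H2-Ab1 with H2-Ob to 0.57 for H2-Eb1 with H2-DMb2. These are descriptions over 12 libraries of 4 groups that share their scaling. Among 3719 other genes with a mean log2 CPM of at least 5, the closest to the mean standardized profile of the 9 were Gpi1 (r = 0.86), Ube2g1 (0.86), Gpr183 (0.85), Eif4a1 (0.84) and Mark2 (0.83), and none of these 5 was called in any of the 6 comparisons.

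The first question was whether the KI allele changed class II genes in MemB. None of the 9 was called in KI MemB against control MemB at a Benjamini-Hochberg adjusted p below 0.05 in edgeR's quasi-likelihood test, where 0.308% of all genes tested were called. DESeq2 also called 0 of the 9, and 0 had an unadjusted p below 0.05 by edgeR, where 11.1% of all genes did. The classical chains had slightly higher means in KI MemB, 7 of the 9 estimates were positive, and the median log2 fold change of the 9 was 0.08 against -0.03 over all genes.

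H2-Aa, the alpha chain of the A dimer, stood at 1884, 1868 and 1261 CPM in control MemB and 1913, 1817 and 2166 in KI MemB. Its log2 fold change was 0.23 (SE 0.16, 95% interval -0.08 to 0.55). The groups overlapped, and without the third control library, the lowest, the fold change was 0.07. H2-Ab1, the beta chain, stood at 1056, 1164 and 1195 CPM in control MemB and 1203, 1290 and 1118 in KI MemB, with a log2 fold change of 0.08 (SE 0.16). H2-Eb1, the beta chain of the E dimer, stood at 802, 775 and 738 CPM and at 912, 770 and 1002, a log2 fold change of 0.21 (SE 0.16). In both genes 1 KI library lay inside the control range.

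Cd74 stood at 2034, 1893 and 1899 CPM in control MemB and 2614, 2066 and 1898 in KI MemB, and its log2 fold change was 0.18 (SE 0.15). The first KI library was the highest of the 6, without which the fold change was 0.03, and the third nearly matched the lowest control. For the coactivator Ciita, the values were 99.6, 107 and 164 CPM in control MemB and 94.9, 164 and 114 in KI MemB, with a log2 fold change of 0.01 (SE 0.30, 95% interval -0.59 to 0.61). Each group held 1 high library at the same level and 2 lower ones, and with 1 library left out the fold change of Ciita ran from -0.24 to 0.27.

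Among the editing genes, H2-DMb2, the beta chain of H2-DM, had the largest positive estimate. It stood at 281, 214 and 243 CPM in control MemB and 343, 239 and 429 in KI MemB, with a log2 fold change of 0.45 (SE 0.23, 95% interval -0.02 to 0.92, unadjusted p = 0.058, adjusted p = 0.465 by edgeR's quasi-likelihood test). The groups overlapped through the second KI library, and the fold change was 0.65 without that library and 0.24 without the third KI library, the highest. H2-DMa, the alpha chain, stood at 106, 133 and 111 CPM against 144, 140 and 77.1, a log2 fold change of 0.05 (SE 0.32). With 1 library left out, the fold change of H2-DMa ran from -0.09 to 0.29.

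H2-Ob, the beta chain of H2-O, stood at 642, 586 and 635 CPM in control MemB and 517, 427 and 718 in KI MemB, with a log2 fold change of -0.16 (SE 0.19). Without the third KI library, the highest of the 6, it was -0.40. H2-Oa, the alpha chain, was the 1 gene of the 9 whose libraries did not overlap, with 48.8, 36.8 and 52.1 CPM in control MemB and 35.8, 30.9 and 20.2 in KI MemB. Groups of 3 did not overlap in 12.1% of all genes tested, so 1 of 9 was near the background. The log2 fold change of H2-Oa was -0.66 with a wide 95% interval of -1.79 to 0.46 (SE 0.55, adjusted p = 0.715 by edgeR's quasi-likelihood test). For the other 8 genes, the interval lay within a log2 fold change of 1 in either direction.

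Other measurements did move between these groups, and their part in the values above was not tested. Ighd and Ighm, the genes of the sort, were both lower in KI MemB, Ighm by 2.46 and Ighd by 1.35 on the log2 scale, and only the fit on 6 libraries lost a call, that of Ighd. Jchain, the joining chain made by PC, was higher in KI MemB with a log2 fold change of 3.80 (adjusted p = 0.00524 by edgeR's quasi-likelihood test), the 1 of 6 PC markers called. Without the third KI MemB library its adjusted p was 0.0507. The summed PC markers were at 136 to 259 CPM in control MemB and 224 to 339 in KI MemB. Without Jchain they were at 129 to 253 CPM in control MemB and 141 to 175 in KI MemB, with the mean lower in KI (190 and 156). That fall was mainly in Mzb1 (means 122 in control and 76.6 in KI MemB), and Prdm1 was also lower (6.88 and 4.63). Sdc1 (0.04 and 4.86), Tnfrsf17 (0.36 and 5.17) and Xbp1 (61.5 and 64.4) had higher means in KI MemB. The Sdc1 mean rested on the first KI library, at 14.4 CPM. The 7 summed T and NK cell markers were at 67.5 to 116 CPM in control MemB and 1.75 to 48.0 in KI MemB. Of the 6 that passed the filter, 1, Nkg7, was called lower, a call lost in 8 of 23 alternatives. It was lost without any 1 KI MemB library (adjusted p by edgeR's quasi-likelihood test up to 0.216) and without the first or second control MemB library (0.296 and 0.0889). The 12 macrophage and dendritic cell markers, of cells that also carry class II, summed to 65.5 to 178 CPM in control MemB and 87.9 to 189 in KI MemB. Of these, 7 passed the filter and 0 were called. Most of the sum was Itgam (24.5 to 96.2 CPM in control MemB and 44.9 to 99.6 in KI MemB) and Flt3 (10.7 to 48.0 and 16.8 to 46.4). Adgre1, Csf1r and Lyz2 reached at most 1.84, 13.9 and 8.77 CPM in a MemB library, and Fcgr1 was at 0 counts in all libraries. In sorted bulk cells, fewer cells of a type and less RNA per cell cannot be told apart.

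In B2, KI was compared with control in the naive-type cells of the same cavity. None of the 9 genes was called in KI B2 against control B2 by edgeR's quasi-likelihood test or by DESeq2, 0 had an unadjusted p below 0.05 by edgeR (5.73% of all genes did), and edgeR called 0.0067% of all genes. No gene of the 9 had groups that did not overlap, against 10.2% of all genes. Of the 9 estimates 8 were negative, with a median log2 fold change of -0.14 against -0.03 over all genes, and the lowest adjusted p by edgeR's quasi-likelihood test was 0.903.

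Cd74 stood at 2059, 2092 and 2844 CPM in control B2 and 1754, 1953 and 2188 in KI B2, a log2 fold change of -0.25 (SE 0.15). The third control library was the highest of all 12, and without it the fold change was -0.08. H2-Aa stood at 1923, 1551 and 1784 CPM in control B2 and 1435, 1796 and 1676 in KI B2, a log2 fold change of -0.10 (SE 0.16). H2-Ab1 stood at 1208, 1023 and 906 CPM against 754, 1136 and 954 (log2 fold change -0.14, SE 0.16), and H2-Eb1 at 785, 819 and 702 against 744, 707 and 722 (log2 fold change -0.09, SE 0.16). The chains thus overlapped between genotypes in B2, as the coactivator did. Ciita stood at 120, 176 and 134 CPM in control B2 and 109, 127 and 132 in KI B2, a log2 fold change of -0.23 (SE 0.30).

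H2-DMa in B2 rested on 1 library. It stood at 142, 325 and 132 CPM in control B2 and 170, 141 and 123 in KI B2, and the log2 fold change of -0.47 (SE 0.32) became 0.07 without the second control library. H2-Oa stood at 30.4, 31.8 and 18.0 CPM in control B2 and 11.97, 36.7 and 64.2 in KI B2. Its KI libraries took in the lowest and the highest of all 12 values, and the log2 fold change of 0.49 (SE 0.55) became -0.13 without the third KI library. H2-DMb2 stood at 273, 279 and 362 CPM against 244, 253 and 301 (log2 fold change -0.20, SE 0.23), and H2-Ob at 647, 664 and 849 against 743, 656 and 604 (log2 fold change -0.11, SE 0.19). Intervals lay within a log2 fold change of 1 in either direction for 7 of the 9 genes, the exceptions being H2-DMa and H2-Oa.

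**Figure D3:**
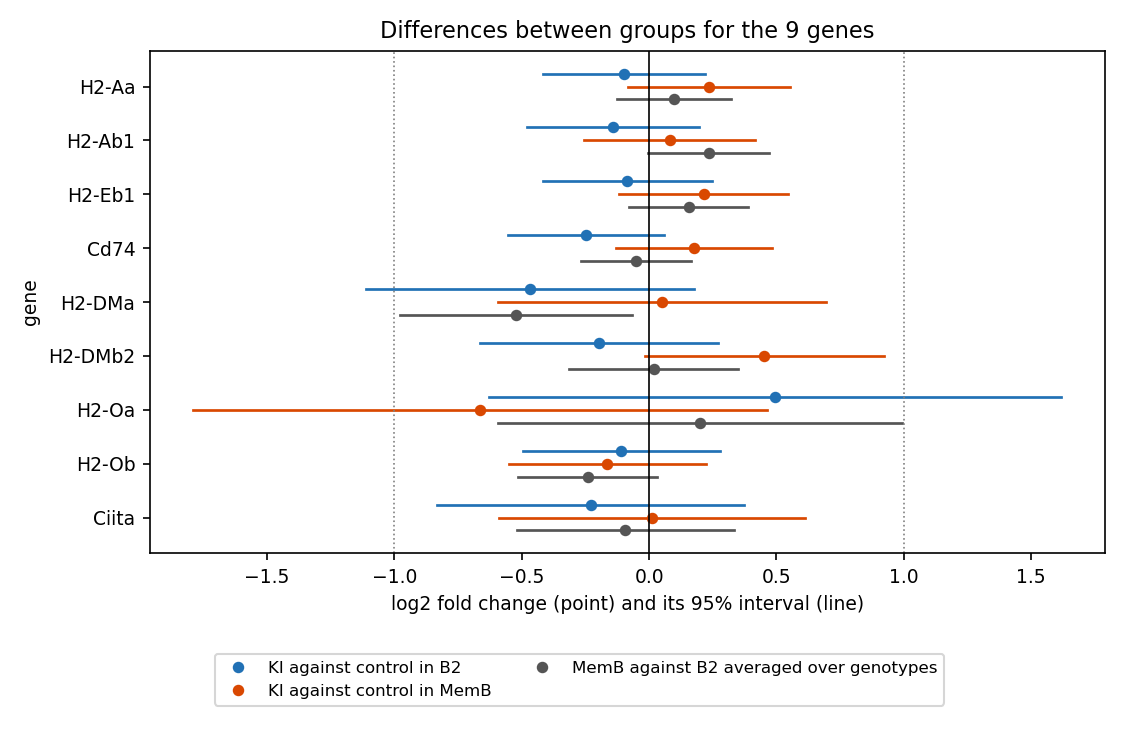
Log2 fold changes (points) with 95% intervals (lines) of the 9 genes for KI against control in B2, KI against control in MemB, and MemB against B2 averaged over genotypes, with dotted lines at a log2 fold change of 1 in either direction. The H2-DMa interval in the averaged comparison, -0.98 to -0.07, is the 1 of 27 drawn that leaves out 0, and that gene did not pass the adjusted threshold.

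A test of the difference between the KI effects in the MemB and B2 pools also called none of the 9 genes by edgeR's quasi-likelihood test or by DESeq2, where edgeR called 0.067% of all genes, and 0 had an unadjusted p below 0.05 by edgeR, where 8.5% of all genes did. The largest positive difference was that of H2-DMb2, at 0.65 (SE 0.32) on the log2 scale, and the largest negative one that of H2-Oa, at -1.16 (SE 0.78), which was -0.53 without the third KI B2 library, its highest. The value for Cd74 was 0.42 (SE 0.21, adjusted p = 0.603 by edgeR's quasi-likelihood test).

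MemB were then compared with B2. Averaged over the genotypes, 0 of the 9 genes were called by edgeR's quasi-likelihood test or by DESeq2, where 1.39% of all genes were called by edgeR, and 1 of the 9 had an unadjusted p below 0.05 by edgeR against 12.9% of all genes. All 9 intervals lay within a log2 fold change of 1 in either direction. The 6 B2 and the 6 MemB libraries overlapped for each of the 9 genes, against 1.27% of all genes without overlap. The estimates ran from -0.52 for H2-DMa to 0.23 for H2-Ab1, with a median of 0.02, the same as over all genes.

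H2-DMa was the gene with the unadjusted p below 0.05, at 0.0263 and an adjusted p of 0.297 by edgeR's quasi-likelihood test. Its log2 fold change in MemB against B2 was -0.78 (SE 0.32) in control and -0.26 (SE 0.32) in KI, and without the second control B2 library, at 325 CPM, the averaged value of -0.52 (SE 0.22) became -0.25. The chains of the A and E dimers had positive averaged estimates, 0.23 (SE 0.12) for H2-Ab1, 0.15 (SE 0.11) for H2-Eb1 and 0.10 (SE 0.11) for H2-Aa. H2-Ob was at -0.24 (SE 0.13), Ciita at -0.09 (SE 0.21), Cd74 at -0.05 (SE 0.11), H2-DMb2 at 0.02 (SE 0.16) and H2-Oa at 0.20 (SE 0.39).

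Within control mice, edgeR's quasi-likelihood test and DESeq2 called 0 of the 9 genes, edgeR called 0.288% of all genes, and 1 of the 9, H2-DMa, had an unadjusted p below 0.05 by edgeR, where 10.6% of all genes did. In 3 of the 9 the libraries did not overlap, with MemB lower for Cd74 (1893 to 2034 CPM against 2059 to 2844) and H2-Ob (586 to 642 against 647 to 849) and higher for H2-Oa (36.8 to 52.1 against 18.0 to 31.8), where 12.3% of all genes had no overlap. Within KI mice the same tests called 0 of the 9, edgeR called 0.388% of all genes, and 1 of the 9, H2-Ab1, had an unadjusted p below 0.05 by edgeR (log2 fold change 0.34, SE 0.17, adjusted p = 0.462 by edgeR's quasi-likelihood test), where 10.6% of all genes did. H2-Aa (1817 to 2166 CPM against 1435 to 1796) and H2-Eb1 (770 to 1002 against 707 to 744) lay above B2 in all KI MemB libraries, 2 of 9 against 14.9% of all genes. The 5 genes without overlap in one genotype overlapped in the other.

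Ranked by mean CPM, the 4 groups stood in no common order. KI MemB was the highest group for H2-Aa, H2-Ab1, H2-Eb1 and H2-DMb2, control B2 for H2-DMa, H2-Ob, Cd74 and Ciita, and control MemB for H2-Oa. The highest group mean was between 1.17 times (Ciita) and 1.72 times (H2-DMa) the lowest. Of the 27 gaps between neighbours in these orders, 26 were smaller than the gene's pooled SD within groups, the exception being KI MemB over control MemB for H2-Eb1 (895 ± 117 and 771 ± 32.1 CPM, SD, n = 3 each).

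The balance of the inhibitor H2-O to the editor H2-DM was read as a ratio. For each library, the level of H2-O (H2-Oa and H2-Ob summed) was divided by that of H2-DM (H2-DMa and H2-DMb2 summed) and put on a log2 scale. Ratios of CPM are compared between libraries here, and they do not rank H2-O against H2-DM, since the genes differ in length. With CPM per kb the ratio was -0.09 to 0.08 in control MemB and -0.71 to -0.35 in KI MemB, and the groups that did not overlap were those of the CPM ratio. In B2 the ratio was 0.71, 0.21 and 0.81 in control and 0.87, 0.82 and 0.66 in KI, and in MemB it was 0.84, 0.84 and 0.96 in control and 0.18, 0.27 and 0.55 in KI. All 3 KI MemB libraries lay below all control MemB and all KI B2 libraries, and the control MemB libraries lay above control B2, the lowest at 0.836 against 0.811 for the highest. The low control B2 value of 0.21 was that of the second library, with its H2-DMa of 325 CPM.

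MemB against B2 over both genotypes, the difference in the log2 ratio was -0.07 (two-sided exact permutation of cell types within genotype, 400 arrangements, p = 0.715). It was 0.30 in control, where it was 0.12 without the second control B2 library, and -0.45 in KI. Another 3 comparisons were added after these values were seen. KI minus control was -0.54 in MemB on the log2 scale, with a two-sided exact permutation p of 0.1, the smallest that 20 arrangements allow, and 0.21 in B2 (exact permutation p = 0.4), or 0.02 without the second control B2 library. The KI effect in MemB minus that in B2 was -0.75, with a two-sided exact permutation p of 0.02 over 400 arrangements of genotype within cell type. These arrangements assume no KI effect in either cell type, so the test cannot single out a difference between the effects. They also treat B2 and MemB libraries as independent. Adjusted by Benjamini-Hochberg over the 5 ratio tests, this exact permutation p became 0.1, so the difference did not pass the threshold. Without the second control B2 library it was -0.57 (exact permutation p = 0.04, not adjusted).

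The beta chains were the larger part of both sums in all libraries but the second control B2 one, where H2-DMa exceeded H2-DMb2, so their ratio is not a separate measurement. H2-Ob over H2-DMb2 alone lay at 0.59 to 0.84 in KI MemB, below the 1.19 to 1.45 of control MemB and the 1.01 to 1.60 of KI B2, while control MemB then overlapped with control B2 (1.23 to 1.25). With H2-DMa in place of H2-DMb2, all 4 pairs of groups overlapped, and the difference of KI effects was -0.45 (exact permutation p = 0.505). H2-DMb2 shares sequence with H2-DMb1, a second beta chain gene of H2-DM beside it, and with H2-DMb1 added to the H2-DM sum the difference of KI effects was -0.68 (exact permutation p = 0.02). The ratio of Cd74 to the A chains (H2-Aa and H2-Ab1 summed) gave a difference of -0.20 on the log2 scale in MemB against B2 (exact permutation p = 0.17, adjusted p = 0.283 over the 5 ratio tests), and its libraries overlapped in all 4 pairs of groups.

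**Figure D4:**
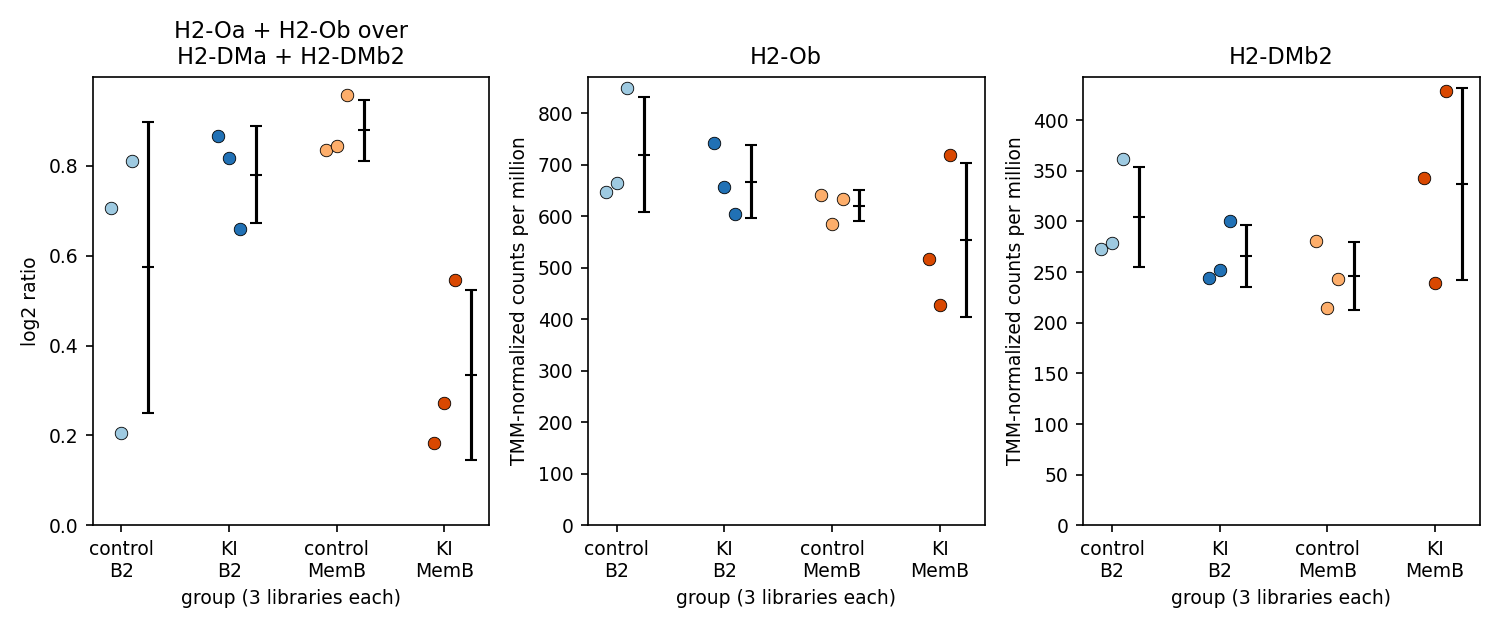
Left, log2 ratio of H2-Oa plus H2-Ob over H2-DMa plus H2-DMb2 in each library, and in the other 2 panels the CPM of H2-Ob and H2-DMb2, with points for libraries and bars for the mean and SD of 3. The 3 KI MemB points at 0.18, 0.27 and 0.55 lie below all control MemB and KI B2 points, while each gene by itself overlaps between KI and control MemB.

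Relatives and partners outside the 9 were read by the same fits. Of 15 other genes of the class II pathway, 13 passed the filter and 0 were called in any of the 6 comparisons. H2-DMb1 stood at a mean of 112 ± 33.5 CPM over 12 libraries and its log2 fold change in KI MemB was 0.25 (SE 0.34). Ctss, cathepsin S, the protease that trims the invariant chain, had a log2 fold change of -0.02 (SE 0.26) in KI MemB. H2-Eb2 was lower in level, at 7.35 CPM per kb, and its log2 fold change in KI B2 was -1.40 (SE 0.66, adjusted p = 0.849 by edgeR's quasi-likelihood test). H2-Ea, the alpha chain of the E dimer, which is known to be deleted at its promoter in C57BL/6 mice, had 0 to 2 counts in 11 libraries and 37 in the third KI MemB library, and did not pass the filter.

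Of 7 genes of class II transcription, which encode subunits of RFX and NF-Y and Creb1, 0 were called in any comparison. Rfx5, the large RFX subunit, had a log2 fold change of -0.95 (SE 0.50, adjusted p = 0.493 by edgeR's quasi-likelihood test) in KI MemB. Of 10 known regulators of Ciita, 2 were called, both lower in MemB averaged over genotypes, where 1.39% of all genes were called. Pax5, the B cell identity factor, fell by 0.52 (SE 0.14, adjusted p = 0.0494 by edgeR's quasi-likelihood test) on the log2 scale, and Bcl6, the germinal center repressor, fell by 1.82 (SE 0.47, adjusted p = 0.0448 by the same test). Both calls lay near the threshold. That of Pax5 was lost in 15 of 23 alternatives (adjusted p up to 0.169), among them DESeq2 and leaving out any library but the third control MemB one, and that of Bcl6 in 9 of 23 (up to 0.22), among them leaving out any control B2 library. Ciita itself was at -0.09 (SE 0.21) in that comparison. Among 14 genes of the class I pathway, 0 were called in any comparison. In MemB against B2, their median log2 fold change was 0.22, beside 0.02 both for the 9 class II genes and for all genes.

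MemB also differed from B2 in genes of other B cell subsets. Fcer2a and Cr2, markers of naive B cells, were lower, and Spn, Zbtb32 and Bhlhe41, 3 of 4 B-1 markers, were higher in MemB averaged over genotypes by edgeR's quasi-likelihood test. The fourth B-1 marker, Cd5, was not called and had a negative averaged log2 fold change of -0.46. Cd5 stood at 8.78 to 14.2 CPM in control MemB and 0.131 to 1.97 in KI MemB. The summed B-1 markers were at 115 to 207 CPM in B2 and 466 to 653 in MemB. Within MemB they were at 585 to 653 CPM in control and 466 to 520 in KI, without overlap, and 0 of the 4 were called in KI MemB against control MemB by edgeR's quasi-likelihood test. The part of these subsets in the class II values and ratios was not tested.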

How the data were processed

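RNAseq of 12 sorted PerC libraries was analysed. RNA was amplified with the Ovation V2 kit. Per the submitters' notes, the tools were FastQC 0.12.1, cutadapt 4.5, STAR 2.7.11a and RSEM 1.3.3 on mm39, and strand handling is not given in the sources used here. The authors deposited RSEM expected counts per gene, not normalized, and each of the 12 columns was matched to its library by name. Expected counts were rounded. Entries without a gene symbol (813 of 56941, 0.605% to 0.689% of counts) were left out. The members and gene lists were chosen with earlier results of these data known.

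edgeR 4.0.16 in R 4.3.3 was run with TMM factors and its robust quasi-likelihood fit on the 14933 genes that filterByExpr kept (minimum count 10), with Benjamini-Hochberg adjustment over all of them, in 1 model of 4 group means with 6 contrasts. Genes were called at an adjusted p below 0.05. DESeq2 1.42.0 was an alternative. SE is the log2 fold change divided by the square root of F. Ratios were tested by exact permutation over libraries. The fits were tested on simulated data. Named genes were the 9 members, listed partners called in any comparison, H2-DMb1, H2-Ea, H2-Eb2, Ctss, Rfx5, the 5 closest profiles and Gpr34. Marker genes named beside them were chosen after their values were seen. Positions and lengths are those of GENCODE on GRCm39, and promoter sequences those of RefSeq. Reads were amplified and carry no molecular identifiers, so depth speaks to counting error alone. Alternatives were other normalizations, filters, fits, blocks and leaving out each library. Flow cytometry was not analysed here, and some marker genes are not reported here.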

Additional observations from a re-analysis of the deposited data

Results flagged for a closer look

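The log2 ratio of H2-O to H2-DM differed between MemB and B2 in opposite directions in the 2 genotypes. All 3 control MemB libraries lay above all control B2 libraries, and all 3 KI MemB libraries lay below all KI B2 libraries. The difference between these differences was -0.75 on the log2 scale (two-sided exact permutation p = 0.02, 0.1 when adjusted over the 5 ratio tests). That permutation assumes no KI effect in either cell type and treats B2 and MemB libraries as independent. The comparison was chosen after the values were seen, and the lowest control MemB library, at 0.836, lay just above the highest control B2 library, at 0.811. The difference in control was 0.30, and 0.12 without the second control B2 library. With H2-Ob over H2-DMb2 alone, control MemB and control B2 overlapped, and with H2-Ob over H2-DMa alone MemB and B2 overlapped in both genotypes.

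The summed level of the 9 genes also stood in opposite order in the 2 genotypes, with all control MemB libraries below control B2 and all KI MemB libraries above KI B2. The difference in KI minus that in control was 1528 CPM, and it was not tested. A sum of CPM is weighted to the abundant genes, Cd74 and H2-Aa above all. By their estimates, H2-Aa, Cd74, H2-DMb2 and Ciita followed this order. H2-Ab1 and H2-Eb1 were higher in MemB in both genotypes, H2-DMa and H2-Ob lower in both, and H2-Oa went the opposite way. The gap in control was narrow (6952 against 6961 CPM), and as a share of reads without ribosomal RNA the KI groups overlapped.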

How the results depend on the processing

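None of the 9 genes was called in any of the 6 comparisons under any of 24 alternative settings, which include DESeq2, other normalizations and filters, ribosomal RNA or immunoglobulin genes left out, fits on 6 libraries, blocks and each library left out. Of 1251 fold changes so computed, 37 changed sign and 12 moved by over 1 SE, 0 of them called. The number of all genes called in KI MemB was 46 and depended more on the tool, at 475 by DESeq2, 96 without a filter, 22 without the robust fit, 13 on 6 libraries and 17 to 54 with 1 library left out. For KI B2, the difference of KI effects, and MemB against B2 in control, in KI and averaged, edgeR called 1, 10, 43, 58 and 208 genes, DESeq2 41, 203, 402, 401 and 682, and edgeR without a filter on low counts 8, 42, 104 and 113 in the first 4 of these. With 1 library left out, edgeR called 5 to 10 genes for the difference of KI effects, 20 to 48 in control, 29 to 65 in KI and 133 to 197 averaged, and with immunoglobulin genes left out 3 for the difference of KI effects. Without the robust fit it called 4 genes for that difference, 25 in control, 38 in KI and 151 averaged. Upper quartile normalization gave 6 for the difference of KI effects.

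Deviations of B2 and MemB libraries sharing genotype and number correlated at r from 0.005 to 0.028 (6 pairs). For 42 pairs of different groups without such a match, r ran from -0.025 to 0.019. These ranges overlap, so the values cannot decide whether equal numbers mark the same mouse. The deposited columns also list the genotypes in the same order for both cell types. Pairing was therefore left undecided, and the main fit used no block. With the replicate block the count of genes called in KI MemB was 40, with 0 of the 9, Nkg7 no longer among the called (adjusted p = 0.127 by edgeR's quasi-likelihood test), and for the difference of KI effects 6 in place of 10. For the ratio of H2-O to H2-DM, the difference of KI effects between same-numbered pairs was -0.75 with an exact permutation p of 0.1, the smallest that 20 arrangements allow, and a block changed no call among the 9 genes or the other ratios.

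With H2-Ob over H2-DMa alone the difference of KI effects was -0.45 (exact permutation p = 0.505). For the ratio of the H2-O and H2-DM sums, -0.75 with all libraries, it ran with 1 library left out from -0.87 to -0.57 (exact permutation p from 0.01 to 0.05, the highest being -0.71 without the third control MemB library). Leaving 1 library out moved the MemB against B2 difference of the ratio of sums between -0.16 and -0.01, and that of Cd74 to the A chains between -0.29 and -0.11. With 3 libraries a group, the 95% interval in KI MemB ran from -0.08 to 0.55 for the abundant H2-Aa and from -1.79 to 0.46 for the scarce H2-Oa.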
